A study of Mus musculus with 31 samples.

Results

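The 10 genes described here are markers of smooth muscle cells and pericytes: Acta2, Actg2, Tagln, Myh11, Cnn1, Myl9, Des, Cspg4, Rgs5 and Mcam. They were taken by gene symbol from the 38283 genes of the deposited tables, and all 10 symbols were found. The samples were pancreatic cells of C57BL/6 mice at postnatal day 2, sorted by fluorescence into YFP-positive mesenchymal and YFP-negative non-mesenchymal cells. Each group carried Nkx3.2-Cre, a recombinase driven by the regulatory region of a homeobox gene active in the pancreatic mesenchyme, so the controls carried Cre as well. In the H19DMD model, mutants (H19DMDfl/+;Nkx3.2+/Cre) carried a floxed copy of the imprinting control region upstream of H19, and controls were H19DMD+/+;Nkx3.2+/Cre. Each fraction of that model had 4 mutant and 3 control libraries with values. In the Igf2 model, mutants (Igf2+/fl;Nkx3.2Cre/+) carried a floxed Igf2 allele and controls were Igf2+/+;Nkx3.2Cre/+, with 3 mutant and 4 control libraries of non-mesenchymal cells. The mesenchymal libraries of the Igf2 model were not analysed here. The labels do not say whether a library came from a single animal or a pool, so p-values measure the spread between these libraries.

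Smooth muscle cells contract when myosin slides along actin filaments, and the proteins of that machinery are made from genes switched on together by serum response factor and its coactivator myocardin. Pericytes wrap small vessels, share part of this machinery and carry surface proteins such as those made from Cspg4 and Mcam. In the pancreas both cell types line vessels and lie within the mesenchyme, beside fibroblasts and stellate cells. Among the members, Acta2 and Actg2 encode the vascular and enteric smooth muscle actins, and Myh11 the smooth muscle myosin heavy chain. Myl9 encodes a regulatory myosin light chain, while Tagln and Cnn1 encode actin-binding proteins, transgelin and calponin 1. Des encodes the intermediate filament desmin. Cspg4 encodes the proteoglycan NG2, Rgs5 a regulator of G protein signalling, and Mcam the adhesion molecule CD146.

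The smooth muscle actins are close copies of the actins that every cell makes, so their sequences show what separates the 2 kinds of signal. The stretches below are 60 coding bases of Acta2 and the matching bases of Actg2 and of Actb, the cytoplasmic beta-actin, in GRCm38 with the GENCODE M21 annotation. All 3 lie on the minus strand within a coding exon, and capitals mark bases that differ from Acta2.
Acta2, chr19:34252482-34252541: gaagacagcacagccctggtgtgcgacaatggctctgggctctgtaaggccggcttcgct
Actg2, chr6:83527373-83527432: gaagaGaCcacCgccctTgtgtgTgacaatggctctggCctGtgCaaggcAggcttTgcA
Actb, chr5:142905621-142905680: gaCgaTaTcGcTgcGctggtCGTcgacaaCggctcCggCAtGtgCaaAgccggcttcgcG
Within this stretch Actg2 differed from Acta2 at 11 bases and Actb at 17. Over 1119 aligned coding bases, Actg2 was 84.3% and Actb 83.3% identical to Acta2. The reads were 50 bases long. The longest identical run was 29 bases between Acta2 and Actg2 and 47 between Acta2 and Actb, both shorter than a read. It reached 56 between Acta2 and Actg1, the cytoplasmic gamma-actin, and 7 of the 2146 stretches of 50 bases in the exons of Acta2 (0.326%) occurred in Actg1 or in actin pseudogenes.

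The CArG box is the 10-base element bound by serum response factor: CC, then 6 bases that are each A or T, then GG. It was searched on both strands in RefSeq promoter windows of GRCm38, which run from 250 bases before to 50 bases after the start site. Such windows were at hand for 7 members, all but Actg2, Tagln and Myh11. An exact box was found for Myl9, and boxes with 1 central base other than A or T for Myl9 and Acta2. No other member with a window held a box. The boxes are shown in capitals, each within 30 bases of its own strand.
Acta2, chr19:34255438-34255467, minus strand: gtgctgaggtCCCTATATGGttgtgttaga
Acta2, chr19:34255388-34255417, minus strand: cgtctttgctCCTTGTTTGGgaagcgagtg
Myl9, chr2:156775293-156775322, plus strand: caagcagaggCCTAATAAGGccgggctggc
Myl9, chr2:156775355-156775384, plus strand: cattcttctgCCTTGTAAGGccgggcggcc
The boxes of Acta2 began 84 and 34 bases before the RefSeq start site, given as -84 and -34, and those of Myl9 at -161 and -99. Both boxes of Acta2 lie within the span of the gene in GENCODE M21, which begins further upstream than the RefSeq start site. An exact box was present in 1.63% of the 32851 windows, and a box with at most 1 central mismatch in 9.98%. A match describes the letters only. The windows of Cnn1, Des, Cspg4, Rgs5 and Mcam held neither form.

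All members are protein-coding genes, here with GRCm38 positions from GENCODE M21. Acta2 lies at chr19:34241090-34255590, Actg2 at chr6:83512905-83536265 and Myh11 at chr16:14194535-14291372, each on the minus strand. Myl9 lies at chr2:156775420-156781658, Cnn1 at chr9:22099216-22109630, Des at chr1:75360329-75368579 and Cspg4 at chr9:56865033-56899870, each on the plus strand. Rgs5 lies at chr1:169655501-169695813 and Mcam at chr9:44134469-44142727, also on the plus strand. Tagln, at chr9:45929619-45936058 on the minus strand, overlaps exons of Pcsk7 and Gm48529 on the plus strand, and 58.3% of its stretches of 50 bases are shared with them. The use of strand in counting is not given in the sources used here, so every value of Tagln below is uncertain. For Des, 4.61% of stretches were shared with the antisense gene Gm15179. Mcam has exons that overlap Gm10687 but shared no stretch with it.

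The values are FPKM, fragments mapped to a gene scaled by transcript length and by the mapped fragments of the library, so levels of different genes are compared per length. The tables give no read counts, and no counting interval is given. Ratios between low values gave approximate relative depths that spanned 1.78- to 2.11-fold over the 14 libraries of the H19DMD table and 1.89- to 2.27-fold over the 7 of the Igf2 table, according to the limit used for a low value. Between 17476 and 19352 genes were above 0 in the H19DMD table. As a check of the labels, H19 was 2446 ± 8.11 FPKM (SD, n = 3) in control and 700.3 ± 123.0 (n = 4) in mutant mesenchymal cells, and Igf2 was 3849 ± 190 and 7040 ± 800. These genes did not check the genotype labels of the non-mesenchymal groups, whose ranges overlapped. There H19 was 29.3 ± 4.73 in H19DMD controls and 24.9 ± 7.44 in mutants. Igf2 was 48.2 ± 4.38 in these controls, from 45.2 to 53.2, and 108 ± 50.9 in these mutants, from 45.4 to 156.7. In the Igf2 model, Igf2 was 93.5 ± 33.8 in controls (n = 4) and 78.9 ± 61.9 in mutants (n = 3). The mesenchymal label was checked with fibroblast and stellate genes, of which 10 of 10 were higher in the mesenchymal fraction of controls and of mutants. Acinar genes, which mark enzyme-secreting cells, were lower there for 8 of 8 tested.

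In control mesenchymal cells, the actin Acta2 had the highest level of the members, at 373 ± 122 FPKM (SD, n = 3). It was followed by Myl9 at 252 ± 88.0 and Actg2 at 199 ± 94.3. The vascular marker Rgs5 stood at 119 ± 29.02 and Myh11 at 114 ± 62.5. The other 5 ranged from Des at 39.2 ± 18.4 down to Cspg4 at 6.80 ± 1.75. In this order, which ran Des, Tagln, Mcam, Cnn1 and Cspg4 at its lower end, the ranges of every pair of neighbours overlapped. Within each control library, however, Acta2 was above Myl9, Myh11 above Des, Des above Tagln, Tagln above Mcam and Cnn1 above Cspg4. The other neighbours changed order between libraries.

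All 10 members were higher in mesenchymal than in non-mesenchymal cells of H19DMD controls. Tests used limma on log2(FPKM + 1), with p-values adjusted over the 16732 genes whose mean reached 1 FPKM, and a gene was called at an adjusted p under 0.05. Of all genes tested, 12.4% were called higher and 10.3% lower, and 22.4% had groups that did not overlap with the mesenchymal one higher. The median log2 difference was 4.20 over the members and 0.08 over all genes. The members are standard markers of cells within the mesenchyme, and the sort was made on a mesenchymal reporter. In sorted populations of mixed cells, fewer cells of a type and less RNA per cell cannot be told apart.

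Among the actins, Acta2 was 501, 257 and 361.5 FPKM in the mesenchymal controls and 2.38, 2.62 and 1.84 in the non-mesenchymal controls. The groups were far apart, with a ratio of means of 164, and limma gave a log2 difference of 6.79 ± 0.28 (SE) with an adjusted p of 9.187e-05. Actg2 was 244, 90.98 and 263 FPKM against 2.04, 3.34 and 1.33. Its groups also did not overlap, and the log2 difference was 5.85 ± 0.47 (limma, adjusted p = 0.0005955).

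The myosin genes were as sharply divided. Myh11, whose product marks mature smooth muscle, was 119.7, 48.2 and 173 FPKM against 0.511, 0.355 and 0.306. Its log2 difference of 6.19 ± 0.47 (limma, adjusted p = 0.0004854) understates the ratio of means, 291, because 1 is added to values below 1. Myl9 was 240.2, 170.0 and 345 FPKM against 5.09, 3.13 and 4.48, which are higher non-mesenchymal levels than those of Myh11, and its log2 difference was 5.55 ± 0.31 (limma, adjusted p = 0.0001816).

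The actin-binding genes stood lower. Tagln was 33.3, 19.4 and 42.2 FPKM against 0.865, 0.570 and 2.58, a log2 difference of 3.83 ± 0.43 (limma, adjusted p = 0.001819). Cnn1 was 20.7, 7.27 and 27.8 FPKM against 0.289, 0.557 and 2.07, a log2 difference of 3.24 ± 0.57 (limma, adjusted p = 0.0102). In both genes the lowest mesenchymal library was control 2 and the highest non-mesenchymal library control 3, and the groups did not overlap. Des, the filament gene, was 33.6, 24.3 and 59.7 FPKM against 1.66, 0.372 and 0.106, a log2 difference of 4.56 ± 0.46 (limma, adjusted p = 0.001274).

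Of the pericyte genes, Cspg4 and Mcam had the smallest log2 differences of the 10 members, and Rgs5 lay between Tagln and Cnn1. Rgs5 was 89.7, 120.5 and 148 FPKM against 9.77, 12.1 and 6.38, a ratio of means of 12.7. Cspg4 was 5.54, 6.07 and 8.79 against 0.217, 0.542 and 0.415, a ratio of means of 17.4. Their log2 differences were 3.54 ± 0.29 and 2.47 ± 0.27 (limma, adjusted p = 0.000661 and 0.001591). That of Cspg4 understates its ratio, because 1 is added to values below 1. Over all settings run it reached 3.84, and that of Rgs5 3.73, so the rank of Cspg4 depends on the scale. Mcam, which endothelial cells also make, was 15.1, 15.6 and 28.25 FPKM against 3.15, 5.44 and 9.82. Its log2 difference was 1.59 ± 0.43 (limma, adjusted p = 0.04545), and the call was lost when any of 5 of the 6 libraries was left out, with adjusted p between 0.08219 and 0.1252. For each member the exact two-sided permutation test gave p = 0.1, the smallest that 3 against 3 libraries allow.

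**Figure D1:**
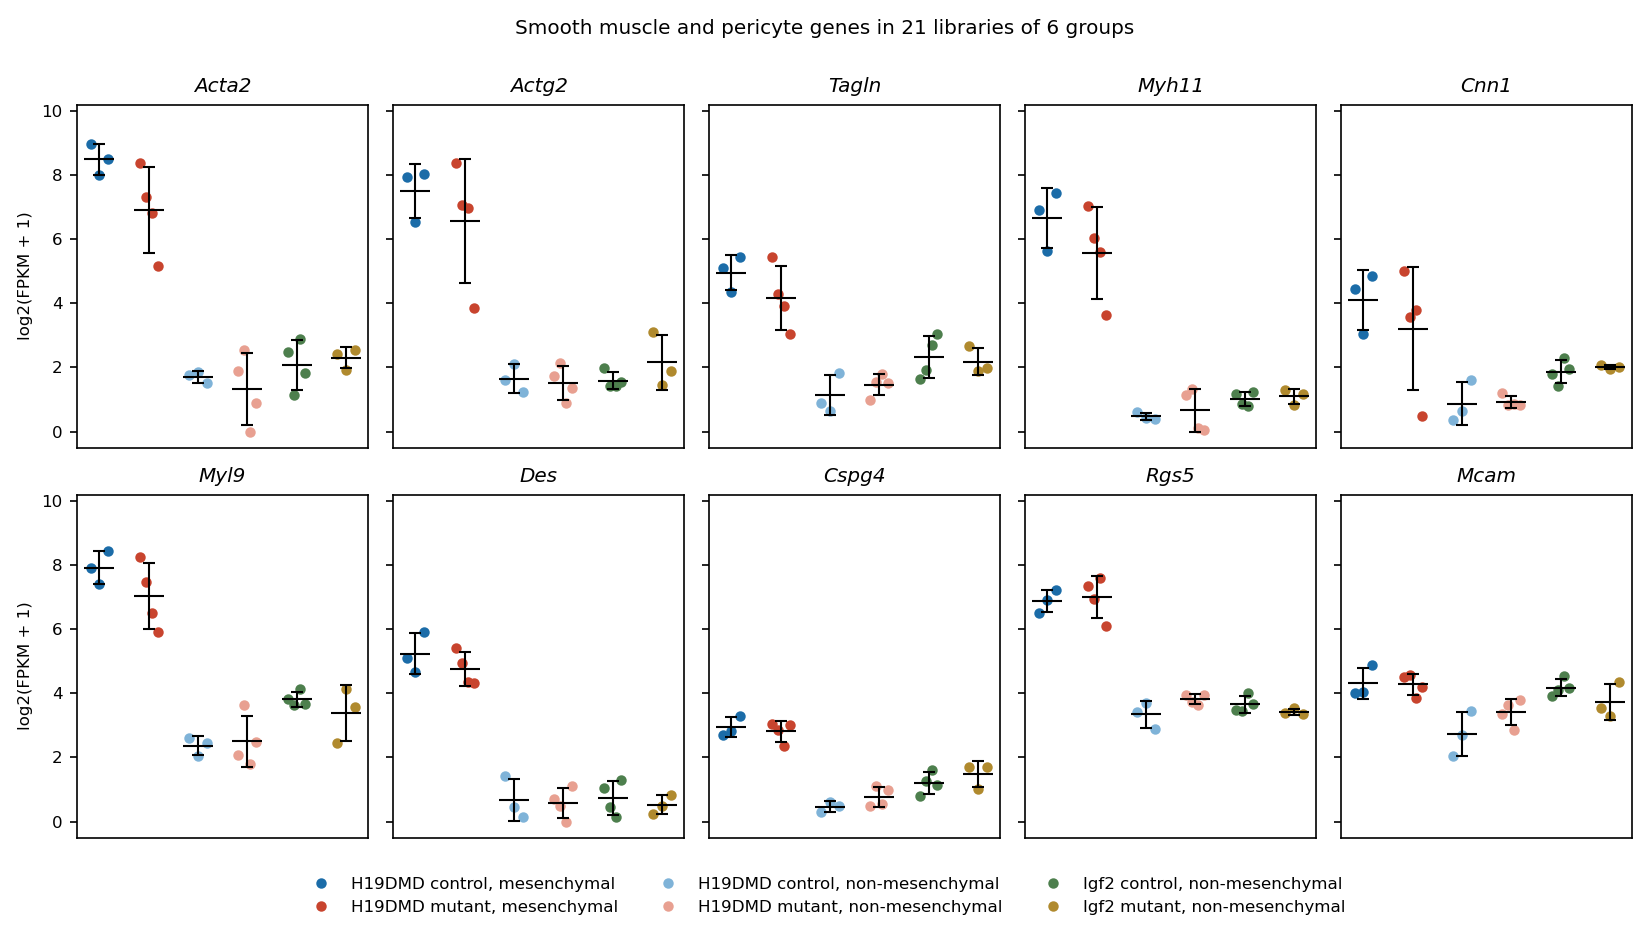
Level of each member as log2(FPKM + 1), with a point for each of the 21 libraries, a bar at the group mean and whiskers of 1 SD. The mesenchymal libraries of the H19DMD model lie above the non-mesenchymal ones of that model for every member except Cnn1, where the lowest mutant mesenchymal library, at 0.397 FPKM, lies among them. The Igf2 libraries come from a separate table.

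The same contrast in the H19DMD mutants, which share no library with the controls, called 9 of 10 members higher, where 13.5% of 16767 genes were called higher and 15.1% lower. For 9 members the groups did not overlap, as for 14.4% of all genes with the mesenchymal group higher. The median log2 difference was 3.68 over the members and -0.03 over all genes. Acta2 was 332.5, 159, 111 and 34.7 FPKM in mutant mesenchymal cells and 2.72, 4.79, 0 and 0.863 in non-mesenchymal cells, where mutant 3 was listed at 0. The groups did not overlap, and the log2 difference was 5.59 ± 0.76 (limma, adjusted p = 0.0008636). Des, also listed at 0 in non-mesenchymal mutant 3, was 41.9, 30.03, 19.6 and 18.9 FPKM against 0.633, 0.416, 0 and 1.16. It was called at 4.19 ± 0.33 (limma, adjusted p = 4.182e-05), the smallest adjusted p of the members in this contrast.

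Cnn1 was the member that missed the call in mutants. It was 31.3, 10.8, 12.9 and 0.397 FPKM in mesenchymal cells and 1.29, 0.779, 0.814 and 0.776 in non-mesenchymal cells. The groups overlapped through mesenchymal library 4 alone, and the log2 difference was 2.28 ± 0.85 (limma, adjusted p = 0.0807). The exact two-sided permutation test gave p = 0.14286, against 0.02857, the smallest possible, for the other 9 members. Without mutant mesenchymal library 4 the log2 difference was 3.19 (limma, adjusted p = 0.0008025). With every library kept, Cnn1 was called when limma was run on protein-coding genes only (adjusted p = 0.03502) or on all 14 libraries in a single model (0.03749).

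The other members kept their direction. The log2 differences were 5.05 ± 0.87 for Actg2, 4.90 ± 0.69 for Myh11, 4.53 ± 0.58 for Myl9 and 2.71 ± 0.48 for Tagln. They were 3.18 ± 0.31 for Rgs5, 2.04 ± 0.26 for Cspg4 and 0.87 ± 0.25 for Mcam. Adjusted p-values of these 7 in limma ran from 0.0001385 for Rgs5 to 0.03463 for Mcam. The call of Mcam was lost in mutants when any of 6 of the 8 libraries was left out, with adjusted p between 0.05183 and 0.08595.

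**Figure D2:**
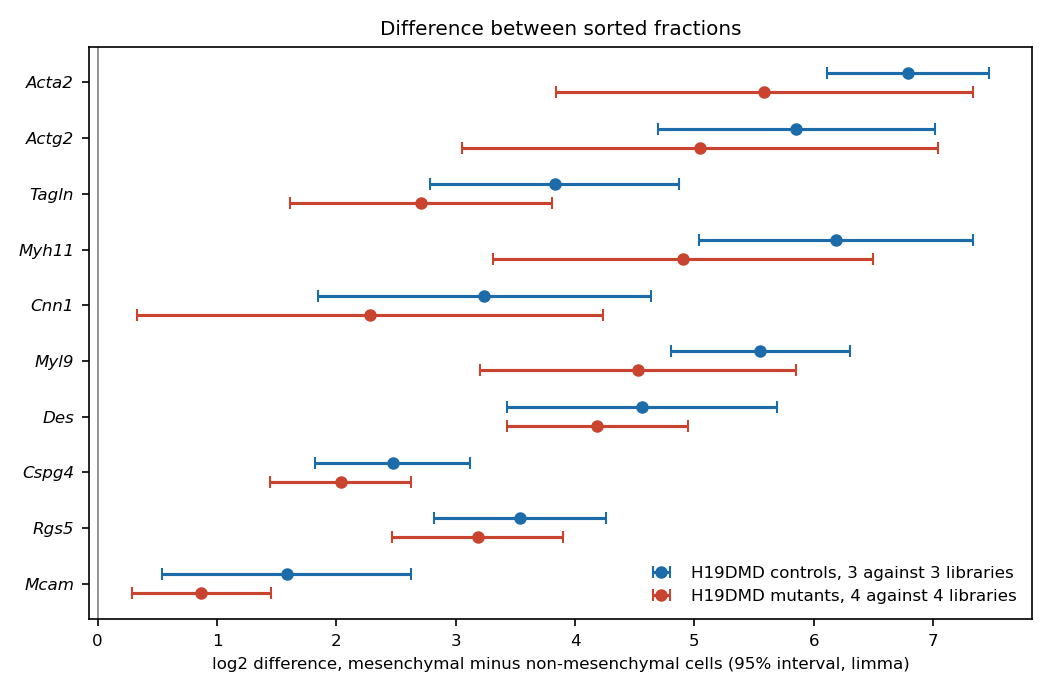
Log2 difference between mesenchymal and non-mesenchymal cells for each member, with 95% intervals from limma, in H19DMD controls (3 against 3 libraries) and mutants (4 against 4). The differences run from 1.59 for Mcam to 6.79 for Acta2 in controls and from 0.87 for Mcam to 5.59 for Acta2 in mutants.

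Other genes of the smooth muscle machinery were called in the same direction. Of 26 further contractile and cytoskeletal genes, 19 were higher in the mesenchymal fraction of controls, none was lower and 7 did not pass, and in mutants 17 of 25 were higher and none lower. In controls, limma gave log2 differences of 6.64 ± 0.51 for Tpm2, a tropomyosin, and 5.07 ± 0.43 for Mylk, the kinase that phosphorylates myosin light chains. Those of Tgfb1i1, a focal adhesion adaptor, and Synpo2, an actin-bundling protein, were 4.62 ± 0.23 and 4.57 ± 0.44. The median of the list was 2.08, lower than that of the members.

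Of the further pericyte and mural cell genes, 12 of 16 tested in controls and 12 of 18 in mutants were called higher and none lower. The genes with the largest differences in controls were Abcc9 and Kcnj8, which encode the subunits of a potassium channel, at 5.14 ± 0.18 and 4.86 ± 0.32. Pdgfrb, the receptor through which pericytes are recruited, followed at 3.87 ± 0.20, and Gjc1, a gap junction gene, at 3.68 ± 0.21.

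Of the regulators of the smooth muscle programme, 6 of 13 tested in controls were called higher and 1 lower, and 6 of 14 and 1 in mutants. Myocd, which encodes myocardin, was higher in controls by 3.81 ± 0.67 (limma, adjusted p = 0.01006). The transcription factor genes Barx1, Klf4 and Foxf1 were higher by 3.02 ± 0.44, 2.53 ± 0.20 and 2.51 ± 0.36, and Mkl2, a myocardin-related coactivator, was the 1 lower gene, with a log2 difference of -1.20 ± 0.22. Srf itself had a log2 difference of -0.41 ± 0.27 and did not pass (limma, adjusted p = 0.3488).

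The non-muscle actins, myosins and tropomyosins had calls in both directions. In controls 4 of 11 were called higher and 1 lower, beside 12.4% and 10.3% of all genes, and in mutants 2 were higher and 3 lower, beside 13.5% and 15.1%. Actg1 was lower in mesenchymal cells in controls, with a log2 difference of -0.96 ± 0.21 (limma, adjusted p = 0.02111), and in mutants at -1.41 ± 0.16 (adjusted p = 0.0003236). Of 14 striated muscle genes, 4 reached the filter in either contrast: Tnnt2, which was called higher, and Mylpf, Tnnt3 and Ttn, which were not called. Mylpf, a light chain of fast muscle myosin, was 4.56 to 21.4 FPKM in control and 0 to 4.90 in mutant mesenchymal libraries. Acta1 was listed at 0 in every control mesenchymal library and reached at most 0.401 FPKM in a mutant one, and Myh6, Myod1 and Myog were listed at 0 in all 7. Of 12 endothelial genes, 4 were called higher in the mesenchymal fraction of controls and 5 in that of mutants.

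Mutant and control mesenchymal cells of the H19DMD model were then compared, which asks whether the deletion went with a change in these genes. No member was called (0 of 10), none had an unadjusted p under 0.05, and the groups overlapped for all 10. Of 15856 genes, 0.0694% were called in limma, 4.76% had an unadjusted p under 0.05 and 5.39% had groups that did not overlap. The log2 difference from control was below 0 for 9 of 10 members, with a median of -0.84 against -0.07 over all genes, but without mutant library 4 each contractile gene moved nearer to 0. The members' median was then -0.26, without control library 3 it was -0.54, without control library 2 -1.12 and without mutant library 1 -1.26.

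Acta2 had the lowest unadjusted p of the members (limma, 0.06085), while its adjusted p was the same as that of Myl9, Tagln, Myh11 and Des. Its 4 mutant values of 34.7 to 332.5 FPKM had a mean of 159 ± 126 (SD), 42.7% of the control mean, and the highest mutant lay within the control range of 257 to 501. The log2 difference was -1.58 ± 0.71 (SE), with a 95% interval of -3.25 to 0.09 and an adjusted p of 0.9269 in limma. The exact two-sided permutation test, with 4 against 3 libraries, gave p = 0.11429. Without mutant library 4 the difference was -0.99.

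For the other contractile genes the log2 differences were -1.09 for Myh11, -0.93 for Actg2, -0.90 for Cnn1, -0.89 for Myl9 and -0.79 for Tagln. Their intervals were wide, from -3.35 to 1.497 for Actg2 and from -3.36 to 1.57 for Cnn1. Without mutant library 4 they were -0.44, -0.02, 0.01, -0.52 and -0.41 in the same order. Other single libraries also moved them by over 1.5 times: without mutant library 1, Actg2 was at -1.53, Cnn1 at -1.498 and Tagln at -1.22. Without control library 2, Actg2 was at -1.41 and Cnn1 at -1.43, and without control library 3, Myh11 was at -0.70 and Cnn1 at -0.53. Des was 24.3 to 59.7 FPKM in controls and 18.9 to 41.9 in mutants, a log2 difference of -0.47, which was -0.12 without control library 3 and -0.75 without control library 2.

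The pericyte genes had the differences closest to 0, each of which changed sign when some single library was left out, and the narrowest intervals. Rgs5 was 162, 122.6, 194.5 and 67.2 FPKM in mutants, beside 89.7 to 148 in controls, a log2 difference of 0.12 with an interval of -0.78 to 1.02, and -0.08 to 0.42 with single libraries left out, the highest without mutant library 4. Cspg4 was 7.21, 6.22, 4.10 and 7.05 FPKM in mutants, a difference of -0.13 with an interval of -0.74 to 0.48. Mcam was 21.7, 22.6, 13.6 and 17.45 FPKM in mutants, a difference of -0.03 with an interval of -0.71 to 0.65. On the log2(FPKM + 1) scale, a change of 1 in either direction lies outside the intervals of Cspg4 and Mcam.

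**Figure D3:**
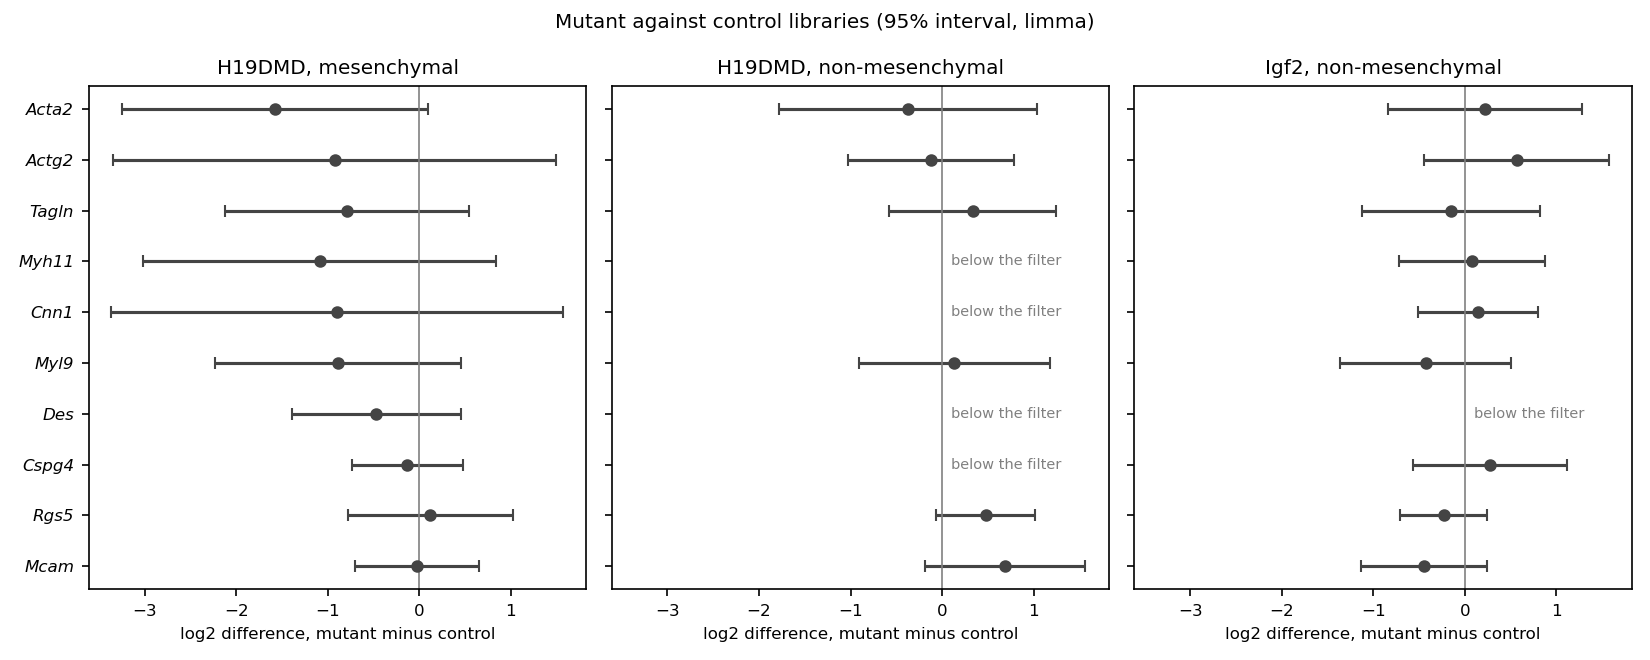
Log2 difference between mutant and control libraries for each member in the 3 comparisons that could be made, with 95% intervals from limma; members under a mean of 1 FPKM were not tested. Every interval includes 0, and those of Acta2, Actg2, Myh11 and Cnn1 in mesenchymal cells are the widest.

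In the mutant mesenchymal libraries, 8 of 10 members had a larger spread than the median gene. The SD of log2(FPKM + 1) over the 4 mutants was 1.93 for Actg2, 1.93 for Cnn1, 1.43 for Myh11, 1.34 for Acta2, 1.04 for Myl9 and 1.01 for Tagln. It was 0.66 for Rgs5 and 0.53 for Des, and for Cspg4 and Mcam it was 0.32, below the median of 0.36 over 8392 protein-coding genes at 5 FPKM or more. An SD over 1 was found for 3.13% of those genes. The members' median SD was 1.02, and in the controls it was 0.53 against 0.28 over all such genes. Without mutant library 4 the members' median was 0.76 against 0.32, and no member exceeded 1.

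Mutant library 4 was the lowest of the 7 mesenchymal libraries for 8 of 10 members. Cnn1 there was 2.16% of the mean of the other 3 mutants, Actg2 6.80%, Myh11 14.1%, Acta2 17.3%, Tagln 28.5% and Myl9 31.1%. Rgs5 was 42.1% and Des 62.0%, while Mcam was 90.4% and Cspg4 121%. The 6 contractile members were at 31.1% or less of the other mutants' mean in this library, and Mcam and Cspg4 were not. The 26 further contractile and cytoskeletal genes summed to 1359 FPKM in library 4, close to the 1386 of mutant 3 and the 1441 of control 2, and to 1755 and 2386 in the other mutants. Their mean log2(FPKM + 1) was 4.10 in library 4 and 4.42 in mutant 3. The summed FPKM of the 20 further pericyte genes was 447.9 in library 4, within the 341.4 to 469.1 of the mutants.

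Other values of this library also differed. Its approximate relative depth was 0.58 to 0.65 of that of mutant 1, the lowest or near the lowest of the table. Mutant 2, at 0.60 to 0.72, had 159 FPKM of Acta2 and 10.8 of Cnn1. The sum of 12 endothelial genes was 123.4 FPKM in library 4 and 159.8 to 242.9 in the other mutants, with all 12 at 1 FPKM or more on average. The sum of 8 mesothelial genes, markers of the lining of the organ's surface, was 116.0 to 167.6 in the 4 mutants and 178.3 to 378.6 in the 3 controls, and 7 of the 8 had a log2 difference below 0, 0 of them called by limma and 4 with an unadjusted p under 0.05. Their mean log2(FPKM + 1) was lowest in library 4, at 2.90, beside 3.46 to 3.96 in the other mutants and 4.21 to 5.21 in controls. The 14 striated muscle genes summed to 21.5 FPKM in library 4, 28.96 to 55.3 in the other mutants and 43.3 to 116.0 in controls, and their mean log2(FPKM + 1) was 0.55 to 0.72 in mutants and 0.86 to 1.21 in controls. Of the 4 tested, 3 had a log2 difference below 0 and none was called, and Mylpf had the largest, -3.11 ± 0.81 (limma, unadjusted p = 0.006125, adjusted p = 0.9269). The part of depth, or of endothelial, mesothelial or striated muscle cells, in the members' values was not tested.

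**Figure D4:**
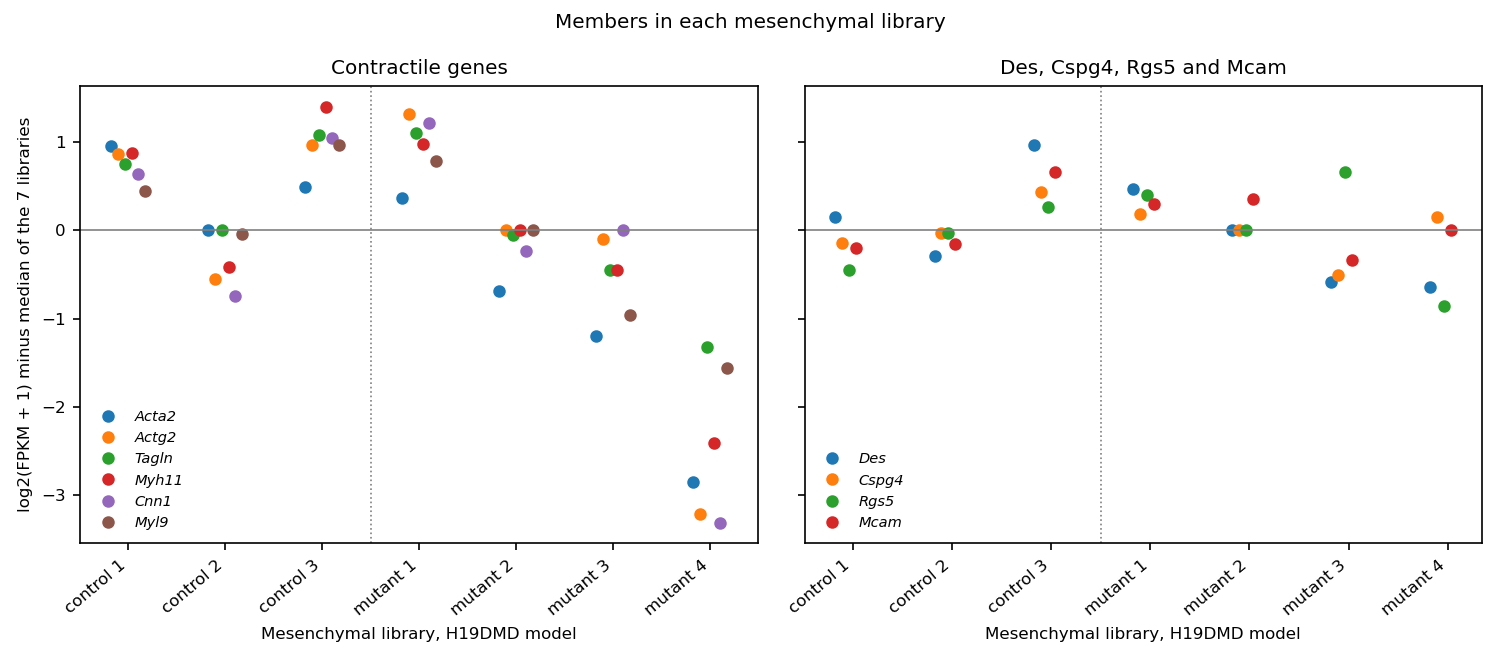
Each member in each of the 7 mesenchymal libraries of the H19DMD model, as log2(FPKM + 1) minus its median over the 7. In mutant 4 the 6 contractile genes lie 1.32 to 3.31 below their medians, while Cspg4 and Mcam lie at 0 or above.

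The 6 contractile genes varied together across the 7 mesenchymal libraries. Their 15 pairs had Pearson's r of 0.866 to 0.996 with a median of 0.929, and 0.569 to 0.982 with a median of 0.862 without mutant library 4. Actg2 and Cnn1 were the closest pair, at 0.996 with all 7 libraries and 0.982 without library 4. Contractile genes paired with Des, Cspg4, Rgs5 or Mcam had a median r of 0.458, over a range of 0.0421 to 0.921, in which Myl9 with Des was the highest. Without library 4 their median was 0.597 over a range of -0.604 to 0.942, so the gap between the medians of the 2 sets of pairs was smaller. Cspg4 with Myl9 went from 0.459 to 0.904 and with Actg2 from 0.0421 to 0.545. Rgs5 with Acta2 was 0.372 with all libraries and -0.604 without library 4, so that sign rested on library 4. Summaries of other cell types' genes also moved with the contractile genes. Over the 7 libraries the endothelial genes had r of 0.684 with Acta2 to 0.839 with Actg2, the mesothelial genes 0.663 with Cnn1 to 0.905 with Acta2, and the striated muscle genes 0.361 with Cnn1 to 0.656 with Myl9. Without library 4 these ran from 0.307 to 0.723, from 0.209 to 0.845 and from 0.380 to 0.756, the last with Acta2, and their part was not tested. With all 7 libraries the immediate early genes had r of 0.368 to 0.678, and the fibroblast and stellate, acinar and leukocyte genes lay between -0.374 and 0.463. Without library 4 the r of the immediate early genes ran from 0.0761 with Cnn1 to 0.632 with Myl9. Those of the fibroblast and stellate genes then ran from -0.543 to -0.0165, of the acinar genes from -0.196 to 0.0269 and of the leukocyte genes from -0.299 to 0.202, so the signs of these 3 lists rested in whole or in part on library 4. These are descriptions over 7 libraries that share depth and sorting, and controls and mutants are pooled in them.

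**Figure D5:**
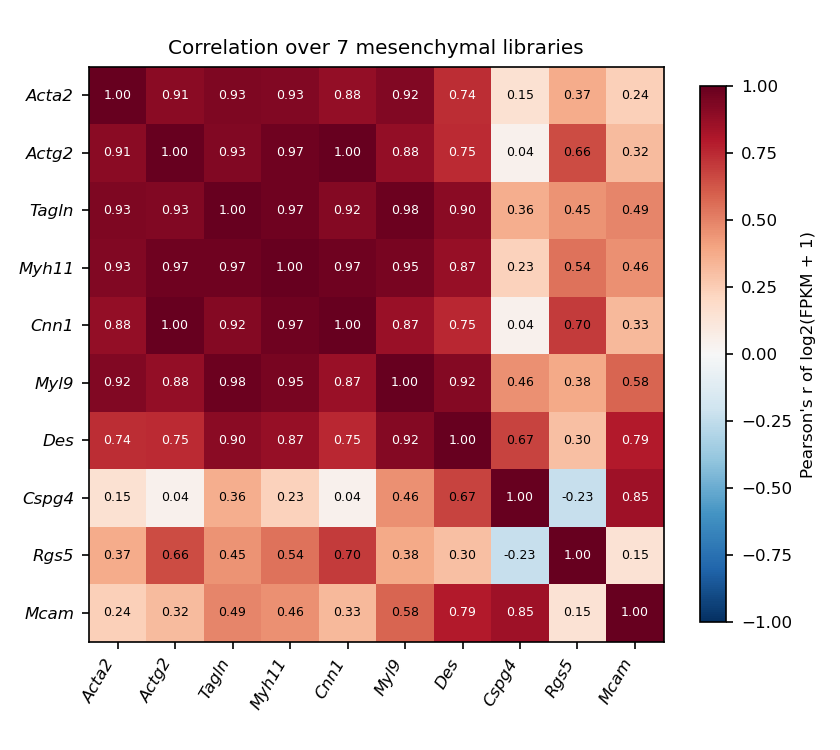
Pearson's r of log2(FPKM + 1) between members over the 7 mesenchymal libraries, with the value printed in each cell. The block of 6 contractile genes has r of 0.866 or more, and pairs with Cspg4, Rgs5 and Mcam are lower.

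Among 8563 other protein-coding genes, 5 were named for having the pattern most like the mean of the members over these libraries. They were R3hdm2 (r = 0.991), Mylk (0.982), Synpo2 (0.980), R3hdm1 (0.976) and Hmcn2 (0.972), and 77 genes, 0.899%, had an r over 0.9. Mylk ran from 22.98 FPKM in mutant library 4 to 121.1, and Synpo2 had its lowest value there too, 2.16 FPKM. Hmcn2 ran from 0.873 to 31.8. R3hdm2 and R3hdm1 varied over narrower ranges, 50.6 to 118 and 14.1 to 22.0, and were at similar levels in non-mesenchymal cells, 79.5 and 17.8 FPKM.

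In non-mesenchymal cells of the H19DMD model, 6 members reached the filter, none of the 6 was called and none had an unadjusted p under 0.05, where 0.0677% of 16239 genes were called and 5.35% had such a p. The groups overlapped for all 10 members, and did not for 5.68% of all genes. Rgs5 was 14.6, 12.3, 11.4 and 14.3 FPKM in mutants and 9.77, 12.1 and 6.38 in controls, a log2 difference of 0.48 with an interval of -0.06 to 1.02, and of 0.25 without control library 3. Mcam was 9.19, 11.5, 6.32 and 12.9 against 3.15, 5.44 and 9.82, a difference of 0.69, which was 0.35 without control library 1 and 1.05 without control library 3. The groups overlapped for both. Acta2, Actg2, Tagln and Myl9 had differences between -0.37 for Acta2 and 0.33 for Tagln. With single libraries left out, that of Acta2 ran from -0.77 without mutant library 2 to 0.07 without mutant library 3. Over all settings run it went as low as -1.13. That of Tagln ran from 0.095 without control library 2 to 0.69 without control library 3. Adjusted p-values in limma were 0.8942 or higher.

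Myh11, Cnn1, Des and Cspg4 stayed under a mean of 1 FPKM there and were not tested. Myh11 was 1.22, 1.53, 0.082 and 0.0436 FPKM in the mutants and 0.306 to 0.511 in the controls, so the mutants lay on both sides of the controls. Cspg4 was 0.393 to 1.15 in mutants and 0.217 to 0.542 in controls.

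The difference between fractions in the effect of the H19DMD deletion was tested as an interaction over the 14 libraries. It was called for 0 of 10 members and for 0.0117% of 17105 genes, and no member had an unadjusted p under 0.05, as 6.35% of all genes did. The estimates were below 0 for all 10, from -1.28 for Myh11 to -0.36 for Rgs5, with a median of -0.88 against -0.11 over all genes. Myh11, Cnn1, Des and Cspg4 were under a mean of 1 FPKM in the non-mesenchymal cells, where adding 1 narrows differences. Their estimates therefore rest mostly on the mesenchymal cells. Over all settings run, the estimate of Acta2 ran from -1.69 to -0.455. Adjusted p-values in limma were 0.8568 or higher. The members' median was -0.56 without mutant mesenchymal library 4, -0.56 without control mesenchymal library 3 and -1.42 without mutant mesenchymal library 1. Without mutant mesenchymal library 4 the estimates were 0.10 for Actg2, -0.63 for Myh11 and -0.05 for Rgs5, and over all single libraries left out that of Rgs5 ran to -0.56.

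In non-mesenchymal cells of the Igf2 model, 9 members reached the filter, 0 of 9 were called and none had an unadjusted p under 0.05, where 0.0631% of 17441 genes were called and 5.28% had such a p. All 10 members overlapped between groups, and 6.02% of all genes did not. Actg2 was 7.59, 1.76 and 2.73 FPKM in mutants and 2.93, 1.69, 1.67 and 1.89 in controls, a difference of 0.57. Mutant 1 alone lay above the controls for it, and the difference was 0.09 without that library and 0.91 without mutant 2. Mcam was 10.6, 8.91 and 19.5 against 14.1, 16.03, 22.4 and 17.04, a difference of -0.45 with an interval of -1.14 to 0.24, which was -0.24 without mutant 2 and -0.76 without mutant 3.

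Rgs5 was 9.47, 10.6 and 9.17 FPKM in the Igf2 mutants and 10.1, 9.91, 15.3 and 11.8 in their controls, a difference of -0.23, or -0.11 without control 3. Myl9 was 4.46, 16.75 and 10.9 against 13.1, 11.4, 16.65 and 11.8, a difference of -0.43, which was 0.04 without mutant 1 and -0.81 without mutant 2. Cnn1 was 2.88 to 3.22 in mutants, within the 1.69 to 3.87 of controls. Des stayed between 0.106 and 1.45 FPKM in all 7 libraries and was not tested. Adjusted p-values in limma were 0.9186 or higher, and exact two-sided permutation p-values ran from 0.22857 to 0.74286. The sum of endothelial genes, some of which share vessels with Rgs5 and Mcam, ran from 25.4 to 304 FPKM over the controls and from 61.7 to 306 over the mutants, and its part was not tested. The sum of 10 acinar genes ran from 30870 to 44950 FPKM over the controls and from 89670 to 103700 over the mutants, without overlap. FPKM depends on the most abundant RNAs, and the part of this difference in the members' values was not tested.

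Across the non-mesenchymal groups, Mcam, Rgs5 and Myl9 were the members with the highest levels. Rgs5 had means of 9.42 ± 2.88, 13.2 ± 1.54, 11.8 ± 2.497 and 9.75 ± 0.757 FPKM in H19DMD controls, H19DMD mutants, Igf2 controls and Igf2 mutants. Mcam had 6.14 ± 3.39, 9.99 ± 2.89, 17.4 ± 3.54 and 12.99 ± 5.66 in the same order. Each model had its own table, and its libraries had their own identifier prefix in the labels, which do not say what the prefix stands for. A difference between models cannot be told apart from one between these sets of libraries, and none was tested.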

How the data were processed

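RNA from sorted pancreatic cells was amplified from small amounts and sequenced as single reads of 50 bases, per the labels' protocols. The deposited values are FPKM, per the file headers. TopHat2 2.0.8, Cufflinks 2.2.1 and GRCm38 are named in the submitters' processing notes. The use of strand is not given in the sources used here. Of 31 samples, 21 had values and 10 were not analysed here. FPKM depends on transcript length models and on the most abundant RNAs of a library.

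Each table was tested separately with limma 3.58.1 (R 4.3.3) on log2(FPKM + 1), for genes whose mean over the libraries compared reached 1 FPKM, with Benjamini-Hochberg adjustment over all genes tested, after a check on simulated data. Exact permutation tests compared single genes. Relative depth was the commonest ratio of low values between libraries (limits of 0.2 to 1 FPKM), as a median over reference libraries. It is approximate, since 23.0 to 44.8% of library triples agreed within 0.06 log2. Alternatives were a pseudocount of 0.1, no filter, median-ratio scaling, protein-coding genes, all 14 libraries in a single model, a replicate block and leaving out each library. Named besides the 10 members were up to 4 called genes of a list with the largest changes and the 5 genes of most similar pattern. Mkl2, Srf and the striated muscle genes Mylpf, Tnnt3, Ttn, Acta1, Myh6, Myod1 and Myog fall outside this rule and were named after their values were seen. The members and lists were chosen with earlier results of these data known.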

Additional observations from a re-analysis of the deposited data

Results flagged for a closer look

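Cnn1 in non-mesenchymal cells of H19DMD mutants was 1.294 FPKM in replicate 1 and 0.776 to 0.814 in the other 3, a library far from the rest of its group. Of 30 combinations of a member and a group of 4 libraries, this was the 1 that stood out, where chance alone marks about 1 in 20.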

How the results depend on the processing

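The number of members called stayed within 1.5 times the main count in each comparison under all alternatives run. Of 750 values of single members, 713 kept their direction and side of the threshold, 13 lost a call, 3 gained one and 21 changed sign, all 21 where no call was made. The 13 were all Mcam between fractions; among them were an adjusted p of 0.0574 in controls without the filter and of 0.05514 in mutants with all 14 libraries in the model. Cnn1 in mutants gained a call with protein-coding genes only (adjusted p = 0.03502), with all 14 libraries (0.03749) and without mutant mesenchymal library 4. Genes called over all settings ran from 2660 to 4448 between fractions in controls, 3892 to 5418 in mutants, 0 to 27 in mutant against control mesenchymal cells, 1 to 34 in non-mesenchymal cells, 0 to 37 in the Igf2 model and 0 to 9 for the interaction. Median-ratio scaling turned the split between fractions in controls from 2067 higher and 1718 lower to 1894 and 2035, and moved the median of all genes from 0.08 to -0.03; in the interaction it moved from -0.11 to -0.0048. It gave Mcam a difference of 0.05 (0.0489) between mutant and control mesenchymal cells.

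Between fractions, same-numbered libraries had correlations of 0.0074 to 0.0674, positive in 7 of 7, and the same-numbered library was the best partner in 5 of 7, a hint from the data and not from the design. Between genotypes the correlations were -0.0506 to 0.0329, with 3 of 9 best partners. None passed 0.1, so the numbers were not taken to pair the libraries. The replicate block, in which a library without a partner adds nothing to the contrast, gave 2660 genes called in place of 3785 in controls, 4141 in place of 4802 in mutants, 7, 5 and 2 in place of 11 in the mutant comparisons, and Cnn1 at 0.0131 in mesenchymal cells and Tagln at 0.0865 in the Igf2 model. No call of a member changed under it.

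Leaving out single libraries changed the sign of 13 members' log2 differences, none of them called. In H19DMD mesenchymal cells the ranges were -0.2446 to 0.047 for Cspg4, -0.1782 to 0.2531 for Mcam, -0.0844 to 0.4219 for Rgs5 and -1.4978 to 0.0131 for Cnn1. In non-mesenchymal cells they were -0.24 to 0.3697 for Myl9, -0.7749 to 0.0697 for Acta2 and -0.3334 to 0.1144 for Actg2. In the Igf2 model they were -0.0224 to 0.2157 for Myh11, -0.8069 to 0.0432 for Myl9, -0.0999 to 0.4861 for Acta2, -0.0028 to 0.2826 for Cnn1 and -0.3954 to 0.0865 for Tagln. The interaction for Actg2 ran from -1.411 to 0.1018. The cause was not tested. Igf2 mutant and control mesenchymal cells were not analysed here.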
